A study of Canis lupus familiaris with 17 samples.

Results

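T cells with high IKZF2 and detectable SOX5 were taken from single-cell RNA sequencing of blood leukocytes of 17 dogs, by a rule on raw counts of unique molecular identifiers (UMIs), each of which stands for 1 captured RNA molecule. A cell was included when it held at least 1 UMI of CD3E (a chain of the CD3 complex that marks T cells), at least 5 of IKZF2 and at least 1 of SOX5, and none of CD4 or of the B cell gene MS4A1. The rule selected 194 of the 84345 barcodes that passed the limits on cell quality (0.230%), or 0.420% of the 46187 CD3E+ cells. Healthy dogs gave 68 of these IKZF2-high SOX5-positive T cells and dogs with osteosarcoma (OS) gave 126. The counts of these 5 genes chose the cells, so they are given without a test. IKZF2, SOX5 and ELOVL5 mark a class that the study named CD8+ γδ T cells. ELOVL5, and the list of 10 genes given for that class, were thus chosen by the study on these same samples and are not independent evidence.

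The 17 samples were PBMC labelled as primary immune cells of genotype "Wt", 1 library per dog, from 7 clinically healthy dogs and 10 treatment-naive dogs with OS, a malignant bone tumor, that had a primary tumor in place. The study describes its dogs as client-owned animals of several breeds and both sexes, middle-aged or, among dogs with OS, also older. Breed, age and sex were not part of the tests, so a difference between the groups cannot be told apart from a difference in these traits. The dog was the replicate throughout. Per dog, between 1239 and 7070 barcodes passed the limits, with a median of 3674.5 to 6718 UMIs per barcode. Of 83418 barcode sequences, 922 occurred in more than 1 dog, which included the sequences of 6 IKZF2-high SOX5-positive T cells.

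As background, γδ T cells carry a T cell receptor of γ and δ chains in place of α and β chains, mostly lack CD4, and include cells that kill infected or transformed targets. IKZF2 encodes Helios, a zinc finger transcription factor of the Ikaros family that is best known from regulatory T cells and is also found in innate-like CD8 T cells. SOX5 encodes an SRY-related transcription factor, and ELOVL5 encodes an elongase of polyunsaturated fatty acids.

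The 194 cells held a median of 7420.5 UMIs, between 2007 and 18142, and a median of 2641.5 genes. IKZF2 had between 5 and 173 UMIs per cell with a median of 11, and 28 cells were at the minimum of 5. SOX5 had between 1 and 58 UMIs with a median of 2, and in 84 cells the rule rested on a single SOX5 molecule. The median of CD3E was 7 UMIs. Most cells thus passed the requirement for IKZF2 by several UMIs, while many passed that for SOX5 by none.

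The label of these cells was checked against their other markers. All 8 genes of a T cell list, among them CD3D, CD3G, CD5, CD6 and LCK, were detected, and their summed level lay between 2176 and 3179 CPM (UMIs scaled to a total of 1000000) in the 7 dogs that had at least 10 such cells, against 2251 to 2569 CPM in other CD8A+ T cells. At least 1 UMI of CD8A, the α chain of CD8, was found in 49.0% of the 194 cells, and CD8B was not among the genes counted under that name. After each cell was thinned to 3000 UMIs, which left out 4 of the 194 cells, CD8A was found in 28.9%. Among the 920 IKZF2-high T cells that carried CD4, which should lack CD8A, these shares were 8.15 and 3.86% at a median of 7632 UMIs, against a median of 7420.5 UMIs in the 194 cells.

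CD8A was not used to choose the cells and was compared with all other CD3E+ CD4- MS4A1- cells of the same dog. In healthy dogs 1, 4 and 5 it stood at 107.5, 158.4 and 270.3 CPM in IKZF2-high SOX5-positive T cells, against 39.1, 104.1 and 107.2 CPM in the others. In dogs OS1, OS2, OS5 and OS6 it stood at 150.8, 231.9, 72.8 and 101.2 CPM, against 93.2, 43.8, 34.3 and 65.5 CPM. CD8A was therefore higher in 7 of 7 dogs, by 1.16 ± 0.64 (SD, n = 7) on the scale of log2(CPM + 1). A two-sided exact sign-flip permutation test gave p = 0.0156, the smallest value that 7 dogs allow. A cell without a CD4 UMI can still be a CD4 T cell, so the other cells can include CD4 T cells with little CD8A. Their part in the difference was not tested. With barcodes of high doublet score removed, 5 dogs remained, all with higher CD8A (1.07, exact p = 0.0625, the smallest that 5 dogs allow). In cells that met the rule except that they had no SOX5 UMI, CD8A lay between 72.4 and 166 CPM (median 108). This range overlapped with that of IKZF2-high SOX5-positive T cells (72.8 to 270 CPM, median 151), so CD8A was not particular to cells with SOX5.

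The receptor type could not be checked. TRDC, which encodes the constant region of the δ chain, was not among the genes counted under that name. The study identified its class by TRDC, taken from a second alignment of the healthy samples to another dog genome. It also reported TRDC in some effector and naive CD8 T cells and throughout NK cells. A δ variable gene, TRDV3, was detected in 1 of the 194 cells (0.515%) and in 2 of 6811 other CD8A+ T cells. Variable genes of the α chain were found in 2.06% of the 194 cells and those of the β chain in 4.12%, against 2.94 and 3.22% of the other CD8A+ T cells. Since variable genes were seldom captured in any population, the cells are called by their rule and not by a receptor.

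Markers of other cell types were counted in the same 7 dogs. The summed level of 8 monocyte markers, among them LYZ, CSF1R, VCAN and CD68, lay between 0 and 2848 CPM, median 204, in IKZF2-high SOX5-positive T cells, and between 70.4 and 1827 CPM, median 437, in other CD8A+ T cells. At least 3 monocyte-marker UMIs were held by 17 of the 194 cells (8.76%) and by 1.97% of other CD8A+ T cells, and 9 cells, from 1 healthy dog and 7 dogs with OS, held at least 50. Of 7 B cell markers, CD79B and PAX5 were at 0 in the selected cells. The summed B cell level, 3079 to 6841 CPM against 6451 to 10164 CPM in other CD8A+ T cells, came mostly from CD79A, which was detected in 94.8 and 99.5% of the cells of these populations and so did not separate B cells from T cells. The list of the study's GATA3-high γδ T cells, 10 genes that include GATA3 and TOX2, lay between 206 and 559 CPM against 104 to 182 CPM in other CD8A+ T cells, with no overlap, and overlapped with IKZF2-high SOX5-negative CD4- T cells (241 to 472 CPM) and IKZF2-high CD4+ T cells (269 to 367 CPM). The eosinophil and basophil list, of which 4 of 5 genes were detected and which holds DACH1, had a median of 72.5 CPM against 15.5 CPM, and its ranges overlapped (8.95 to 234 CPM against 8.44 to 38.4 CPM). The neutrophil list had a median of 977 CPM against 2109 CPM. The list of the study's double-negative T cells, which lack CD4 and CD8, lay between 220 and 511 CPM (median 349) against 214 to 290 CPM (median 260). The NK cell list lay between 133 and 1300 CPM (median 713) against 798 to 1782 CPM (median 861). In both lists the ranges overlapped. The part of these cell types in the results was not tested. The doublet caller Scrublet marked 19 of the 194 cells (9.79%) and 4.67% of all barcodes. SOX5 was also detected in 35.8% of CSF1R+ monocytes and in 20.1% of MS4A1+ B cells that lacked CD3E, and in 2.64% of CD4- T cells with fewer than 5 IKZF2 UMIs. The part of monocyte or B cell RNA in the selection was not tested cell by cell. Cells that held monocyte markers were removed in an alternative for the comparisons of expression only, and not for the shares, the classes or CD8A. Results of that removal stand beside the expression results they changed.

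Within the rule, 2 kinds of cell were present. One expressed genes of the CD8+ γδ list, namely PTHLH, IGF2BP2, ABTB2, AKAP12, SOX4, SLC16A10, PXT1, ZNRF3 and SULT2B1. CTSW, a protease of cytotoxic granules that is also on that list, was left out of this score. The other expressed the cytotoxic genes GZMA, GZMB, GZMK, KLRK1 and NCR3, which encode 3 granzymes and 2 activating receptors. With at least 2 UMIs as the criterion for each set, which was chosen after the values had been seen, 86 cells (44.3%) had only list genes, 83 (42.8%) only cytotoxic genes, 15 (7.73%) both and 10 (5.15%) neither. Among other CD8A+ T cells the same shares were 3.96, 73.1, 5.54 and 17.4%. These classes are ranges of a count and not cell types, and no test was made between them.

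**Figure D1:**
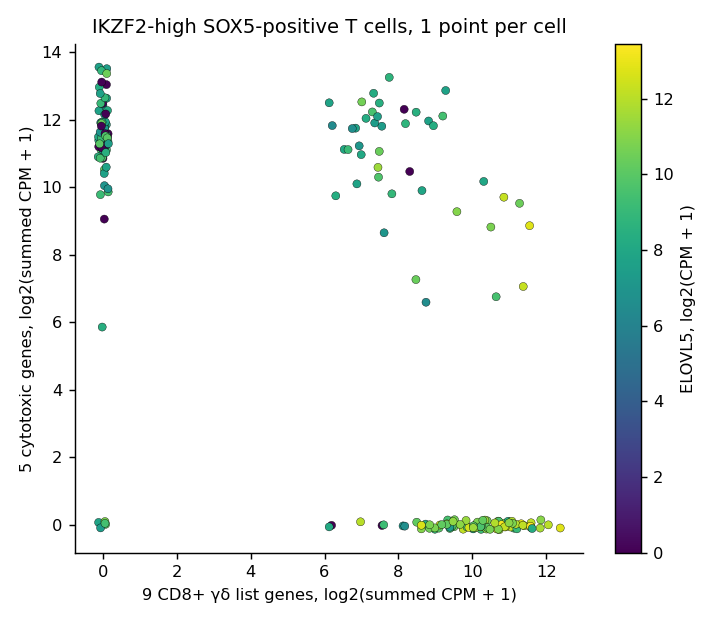
Each point is 1 of the 194 IKZF2-high SOX5-positive T cells, placed by its summed level of 9 CD8+ γδ list genes (horizontal axis) and of 5 cytotoxic genes (vertical axis), both as log2(CPM + 1) with a small random shift that separates cells at 0, and colored by ELOVL5. Most cells with only list genes lie along the lower edge, most cells with only cytotoxic genes lie along or near the left edge, ELOVL5 is mostly higher in the former but varies between cells of both kinds, and 15 cells had at least 2 UMIs of both sets.

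The cells with only list genes held more IKZF2 and SOX5 than the rule asked for. Their median was 21.5 UMIs of IKZF2 and 3 of SOX5 at a median of 9637.5 UMIs per cell, against 8 and 1 at 6244 UMIs in the cells with only cytotoxic genes. Scaled to total UMIs, IKZF2 stood at 4149 CPM against 1333 CPM and SOX5 at 745 CPM against 265 CPM. ELOVL5 was detected in 85 of the 86 cells with only list genes at 2588 CPM, and in 67 of the 83 cells with only cytotoxic genes at 369 CPM. CD8A was found in 46.5 and 54.2% of the cells of these classes.

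Further genes of the pooled cells of each class, named after their values were seen, are given as a description. Dogs OS5 and OS6 gave 28 and 17 of the 86 cells with only list genes and dog OS1 gave 25 of the 83 with only cytotoxic genes, so the classes cannot be told apart from these dogs. LEF1 and TCF7, transcription factors of naive and progenitor T cells, stood at 1856 and 433 CPM in cells with only list genes and at 102 and 50.3 CPM in cells with only cytotoxic genes. BCL11B, BACH2 and FOXP1, which act in T cell development and quiescence, stood at 528, 947 and 1207 CPM against 123, 201 and 282 CPM. TOX, a regulator of T cell development and exhaustion, stood at 1977 CPM against 556 CPM, and TCF12, an E protein, at 2810 CPM against 549 CPM. MYB, a regulator of progenitor cells, stood at 268 CPM against 5.20 CPM. SLC7A11, the cystine transporter, stood at 385 CPM against 10.4 CPM. All of these values were higher in the cells with only list genes.

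A further 5 genes, also named after their values were seen, stood lower in the cells with only list genes. The classes were set by counts of cytotoxic genes, so low levels of other effector genes are not independent of that choice. CCL5, a chemokine of effector T cells, had a UMI in 0 of the 86 cells with only list genes, which allows a share of up to 3.49% of cells with a UMI and sets no limit on cells that express it, and stood at 2064 CPM in the cells with only cytotoxic genes. CCL4, another such chemokine, stood at 2.48 CPM against 714 CPM. KLRD1, the CD94 receptor chain, stood at 9.93 CPM against 456 CPM, and IL12RB2, a chain of the interleukin 12 receptor, at 1.24 CPM against 814 CPM. IL2RB, a receptor chain for interleukins 2 and 15, stood at 33.5 CPM against 435 CPM.

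The share of IKZF2-high cells that also held SOX5 is given by class as a description, without a test, since both genes chose the cells. Among the 3148 CD3E+ CD4- MS4A1- cells with at least 5 UMIs of IKZF2, SOX5 was detected in 86 of the 275 cells with only list genes (31.3%, and between 6.90 and 50% in the 9 dogs with at least 10 such cells). It was detected in 83 of 1713 cells with only cytotoxic genes (4.85%, and between 0 and 10.5% in 17 dogs), in 15 of 279 cells with both (5.38%, and between 0 and 15.4% in 8 dogs) and in 10 of 881 cells with neither (1.14%). The ranges over dogs overlapped, and the median depth was 8334 UMIs in cells with only list genes and 5916 UMIs in cells with only cytotoxic genes. Cells with only cytotoxic genes were the largest of these 4 classes.

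The position of the limits of the rule bears on this mixture. Of the 28 cells with exactly 5 IKZF2 UMIs, 25% had list genes, as had 16.7% of the 36 cells with 4 UMIs that were just outside. Of the 84 cells with 1 SOX5 UMI, 40.5% had list genes, and of the 2954 IKZF2-high cells with no SOX5 UMI, 15.3%. Of the 68 cells with at least 15 IKZF2 UMIs, 85.3% had list genes, and of the 37 with at least 15 IKZF2 and 3 SOX5 UMIs, 36 had them. These cells were also deeper, with a median of 10156 UMIs at 15 or more IKZF2 UMIs and 11511 UMIs where SOX5 was also at 3 or more, against 6367.5 UMIs at 14 or fewer IKZF2 UMIs. List genes were called from a count of UMIs, and the part of depth in these shares was not tested.

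The dogs differed in which kind of cell they contributed. In dog OS5, 28 of 35 cells had only list genes, as had 17 of 20 in dog OS6, 6 of 6 in dog OS7 and 3 of 3 in healthy dog 7. In dog OS1, 25 of 33 cells had only cytotoxic genes and 3 only list genes. In dogs OS3, OS8, OS9 and OS10 none of the 5, 6, 5 and 3 cells had only list genes. The healthy dogs each had at least 1 cell with only list genes, between 1 and 8 per dog.

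**Figure D2:**
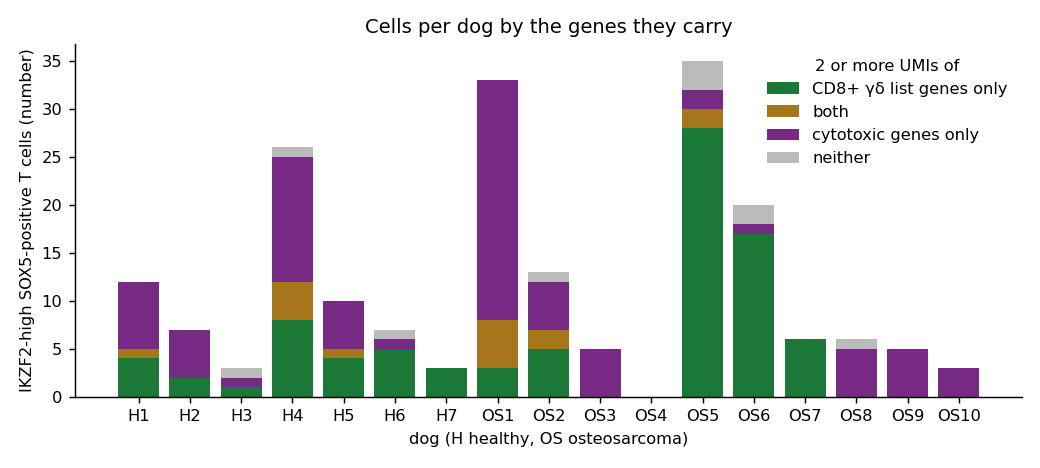
Stacked bars give the number of IKZF2-high SOX5-positive T cells in each of the 17 dogs, divided by class: only list genes, only cytotoxic genes, both, or neither. Dog OS5 (35 cells) and dog OS6 (20 cells) held mostly cells with list genes, dog OS1 (33 cells) mostly cells with cytotoxic genes, and dog OS4 had none.

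IKZF2-high SOX5-positive T cells were first compared with other CD8A+ T cells of the same dog. These 6811 cells were CD3E+ CD8A+ CD4- MS4A1- with fewer than 5 IKZF2 UMIs. Their receptor type was not checked either, and 3.96% of them had only list genes. Genes of the CD8+ γδ list, ELOVL5, MYB, SOX4 and SLC7A11 were higher in IKZF2-high SOX5-positive T cells, and GZMB, GZMK, 7 of 17 NK-type receptors and adaptors, CCL5 and CCR7 were lower, of which DESeq2 called GZMK, CCR7 and 2 of the 17. UMIs were summed per dog and population in the 7 dogs with at least 10 cells (healthy dogs 1, 4 and 5 and dogs OS1, OS2, OS5 and OS6) and compared in edgeR by the quasi-likelihood method, with the dog as a block. Calls needed a log2 fold change beyond 0.58 in either direction and, after Benjamini-Hochberg adjustment, a p under 0.01. Of 11947 genes tested, 492 were called (4.12%), 234 higher (1.96%) and 258 lower (2.16%). The populations differed in depth, with a median of 7420.5 UMIs in IKZF2-high SOX5-positive T cells and 4977 UMIs in other CD8A+ T cells. The median log2 fold change of all genes was -0.15, and with DESeq2's size factors in place of TMM scaling 279 genes were higher and 141 lower. The following CPM values are per dog on the TMM scale, and medians of lists are to be read against the median of all genes.

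ELOVL5 stood at 1038, 1043 and 1116 CPM in the IKZF2-high SOX5-positive T cells of healthy dogs 1, 4 and 5, and at 640, 1075, 2300 and 2549 CPM in dogs OS1, OS2, OS5 and OS6. In other CD8A+ T cells it lay between 226 and 328 CPM. It was higher in 7 of 7 dogs with no overlap between the populations, and dogs OS5 and OS6, which held mostly cells with list genes, had the highest levels. The log2 fold change was 2.17 ± 0.17 (SE), with an edgeR adjusted p of 3.79e-11. ELOVL4, an elongase of very long chain fatty acids, was also called (4.36 ± 0.66, edgeR adjusted p = 1.87e-05). They were the 2 genes that edgeR called of a list of 25 tested genes of fatty acid and lipid synthesis (median -0.08), and DESeq2 called 3, these and ACSL4.

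Of the 10 genes of the CD8+ γδ list, 7 were higher and none lower, with a median log2 fold change of 2.84, where the study had chosen the list on these samples. PTHLH, which encodes parathyroid hormone-like hormone, stood at 186, 118 and 43.4 CPM in healthy dogs 1, 4 and 5 and at 11.5, 64.5, 187 and 187 CPM in dogs OS1, OS2, OS5 and OS6, against 0.619 to 13.4 CPM in other CD8A+ T cells (4.96 ± 0.36, edgeR adjusted p = 2.24e-12). Dog OS1 had the lowest level and dogs OS6, OS5 and healthy dog 1 the highest, and the populations overlapped. IGF2BP2, an RNA-binding protein, rose by 4.95 ± 0.23 on the log2 scale (edgeR adjusted p = 9.49e-18), and AKAP12, a scaffold for protein kinase A, by 4.16 ± 0.36 (edgeR adjusted p = 1.59e-10). The list genes PXT1, CTSW and SULT2B1 did not pass (1.00, 0.57 and -0.21), and SLC16A10 did not without healthy dog 4 or 5 or dog OS5 (2.23, 2.36 and 2.28).

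**Figure D3:**
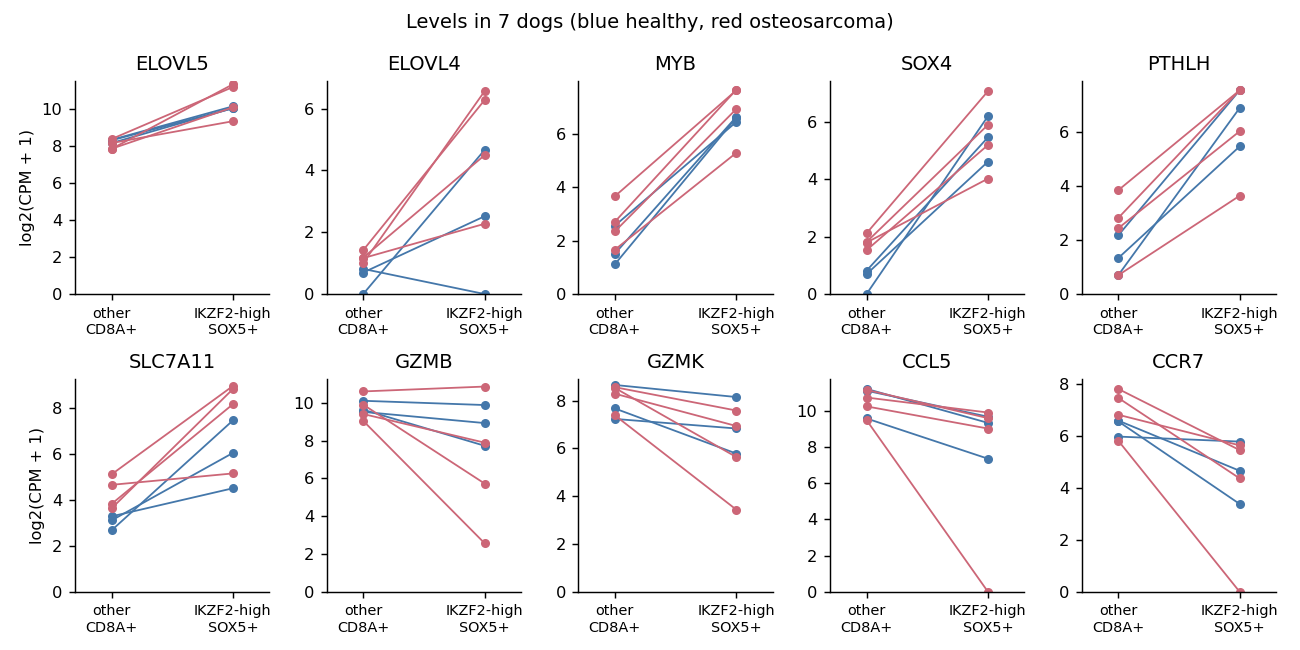
Each panel shows 1 gene, with the level per dog as log2(CPM + 1) in other CD8A+ T cells (left) and in IKZF2-high SOX5-positive T cells (right), joined by a line for each of the 7 dogs (blue healthy, red OS). ELOVL5 rises in every dog, from 226 to 328 CPM to between 640 and 2549 CPM, while GZMB is lower in 6 of 7 dogs, the exception being dog OS1.

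Transcription factors moved in both directions. Of 37 tested factors of T cells and innate-like T cells, 11 were higher and 4 lower (median log2 fold change 0.15). MYB stood between 38.3 and 202 CPM in the 7 dogs against 1.17 to 11.7 CPM (4.85 ± 0.30, edgeR adjusted p = 2.36e-14). SOX4, a SOX factor of progenitor cells, stood at 73.0, 23.6 and 43.4 CPM in the healthy dogs and at 15.3, 35.8, 135 and 59.0 CPM in the dogs with OS, against at most 3.35 CPM (4.76 ± 0.49, edgeR adjusted p = 1.56e-08). TOX2 and ID3, an inhibitor of E proteins, were higher by 3.68 ± 0.68 and 2.59 ± 0.43 (edgeR adjusted p = 0.000304 and 7.29e-05), each in 5 of 7 dogs. With only cells that had CD8A, which left 3 dogs, neither was called, nor was TOX2 at 25 cells per dog, also with 3 dogs, or against cells matched for UMIs. Over the alternatives run, the values lay between 2.58 and 4.40 for TOX2 and between 2.08 and 2.99 for ID3. TCF12, TOX, GATA3, TCF7, RUNX1, FOXP1 and ZEB1 completed the 11, with log2 fold changes between 0.61 and 1.5. HOPX and ZBTB16 (PLZF, the factor of innate-like T cells), together with PRDM1 and SATB1, were the 4 lower ones, between -1.48 and -0.63. PRDM1 (without healthy dog 5, dog OS5 or dog OS6, between -1.33 and -1.24), SATB1 (without healthy dog 4 or dogs OS1, OS5 or OS6, between -0.62 and -0.43) and ZEB1 (without healthy dog 1 or 5, 0.55 in both) lost their calls without single dogs, and DESeq2 called the 11 higher genes and no lower one.

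Most cytotoxic and effector genes did not pass the test, and those that did were lower and differed widely among dogs. GZMB stood at 211, 486 and 943 CPM in healthy dogs 1, 4 and 5 and at 1858, 236, 52.0 and 4.92 CPM in dogs OS1, OS2, OS5 and OS6, against 527 to 1554 CPM in other CD8A+ T cells. It was lower in 6 of 7 dogs and higher in dog OS1 (-1.47 ± 0.33, edgeR adjusted p = 0.00243), and it was not called with DESeq2, with filterByExpr, without the block or against cells matched for UMIs. GZMK fell by 1.42 ± 0.23 (edgeR adjusted p = 5.45e-05) and the activating receptor gene KLRK1 (NKG2D) by 1.12 ± 0.21 (edgeR adjusted p = 0.000287). GZMA (-1.28, edgeR adjusted p = 0.0300) and NCR3 (-1.18, edgeR adjusted p = 0.0113) did not pass. These 5 genes are those the study's text names as low in its class on these samples.

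Of 17 tested NK-type receptors and adaptors, 7 were lower and none higher (median -0.76): KLRK1, KLRD1, KLRB1, KLRG1, CD96, SLAMF7 and CD2. KLRG1, a receptor of terminally differentiated cells, had the largest fold (-1.84 ± 0.41, edgeR adjusted p = 0.00277) and was not called without healthy dog 5 (-1.65) or without dog OS5 (-1.51). KLRB1, CD96 and KLRD1 were not called without healthy dog 5 (-1.25, -1.03 and -0.93), nor SLAMF7 without dog OS5 or OS6 (-1.05 and -1.04). DESeq2 called 2 of the 17, KLRK1 and CD2. Of 14 genes of granules and killing, GZMB and GZMK were lower (median -0.43). Of 11 effector chemokines and cytokines, CCL5 (-1.78 ± 0.24, edgeR adjusted p = 3.13e-06) and LTB (lymphotoxin β, -0.75 ± 0.15, edgeR adjusted p = 0.000591) were lower (median -0.48), CCL5 not with DESeq2.

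Genes of homing and of signalling changed in small numbers. CCR7, which directs cells into lymph nodes, fell by 2.16 ± 0.30 on the log2 scale (edgeR adjusted p = 4.16e-06), and ITGAE (CD103, an integrin of epithelial residence) by 1.68 ± 0.35 (edgeR adjusted p = 0.00144), from 15 UMIs. ITGAE was not called in 7 of 20 alternatives, among them DESeq2 and the removal of barcodes of high doublet score. CCR9, the receptor of gut homing, was higher (2.29 ± 0.55, edgeR adjusted p = 0.00524), a call that was lost without healthy dog 4 or 5 or without dog OS5 or OS6 (2.0, 2.29, 2.24 and 1.99). With ITGA4, an integrin chain, 2 of 23 homing genes were higher and 3 lower (median -0.49). Among 22 cytokine receptors IL2RB (-1.10 ± 0.19, edgeR adjusted p = 0.000149) and IL7R (-0.74 ± 0.18, edgeR adjusted p = 0.00496) were lower (median -0.13), IL7R only with healthy dog 4 and dogs OS1, OS5 and OS6 all included (-0.78, -0.56, -0.67 and -0.69 without each in that order). Of 21 genes of the T cell receptor complex and its signalling, CD3G (-0.71 ± 0.16, edgeR adjusted p = 0.00311) and the kinase gene FYN (-0.74 ± 0.16, edgeR adjusted p = 0.00252) were lower (median -0.16). FYN was not called without healthy dog 5 or dog OS6 (-0.72 and -0.53), nor was CD3G without dog OS6 (-0.54). Neither was called with DESeq2, with its size factors, with filterByExpr, at 25 cells per dog or against cells matched for UMIs, and DESeq2 called 0 of the 21 genes.

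Of 14 genes of cystine import and glutathione, SLC7A11 was higher and GPX1, a glutathione peroxidase, lower (median 0.23). SLC7A11 stood at 64.8, 175 and 21.7 CPM in healthy dogs 1, 4 and 5 and at 34.5, 451, 495 and 285 CPM in dogs OS1, OS2, OS5 and OS6, against 5.36 to 33.5 CPM in other CD8A+ T cells. It was higher in 7 of 7 dogs (3.74 ± 0.35, edgeR adjusted p = 1.32e-09), while GPX1 fell by 0.90 ± 0.16 (edgeR adjusted p = 0.000129). Of 12 immediate early and stress genes only JUND was called (-0.92 ± 0.15, edgeR adjusted p = 6.75e-05, median of the list 0.28). Among 14 regulatory T cell genes, 14 interferon response genes, 13 cell cycle genes and 7 genes of apoptosis none was called by edgeR, with medians of -0.09, -0.05, -1.32 and -0.39 (the unadjusted p of 5, 2, 5 and 2 of them was below 0.05, and 0 of each list were called with DESeq2). Over all 11947 genes the unadjusted p of 2350 was below 0.05. Of 3 tested SOX genes other than SOX5, SOX4 was called (median 0.67).

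The genes with the largest folds among called genes with a mean of at least 10 CPM included KRT23, a keratin, with 28 UMIs in IKZF2-high SOX5-positive T cells and none in other CD8A+ T cells of these dogs (at least 146-fold higher, with 3 UMIs over the group as the floor). PPP1R9A (6.71 ± 0.80), ADGRL3 (5.69 ± 0.65), TMEM178B (5.43 ± 0.48), DACH1 (5.42 ± 0.43), NAV3 (5.42 ± 0.55) and PRDM16 (5.25 ± 0.93) followed on the log2 scale. PPP1R9A and NAV3 are known from neurons, ADGRL3 is an adhesion receptor, and DACH1 and PRDM16 are transcription regulators. ADGRL3 was not called at 25 cells per dog, with at least 2 SOX5 UMIs or when only cells with CD8A were used. DACH1 stood between 8.11 and 217 CPM, highest in dogs OS5 and OS6, against at most 6.55 CPM.

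At the other end, COL6A5 had no UMI in IKZF2-high SOX5-positive T cells (at least 4.07-fold lower). IGF1R, the receptor of insulin-like growth factor 1, fell by 2.54 ± 0.45, STBD1, a glycogen-binding protein, by 2.75 ± 0.39, and CSTA, a cysteine protease inhibitor, by 2.30 ± 0.31. NKAIN2 (-3.41), SCOC (-3.23), SAMD4A (-2.51), CKAP4 (-2.36), VTCN1 (-2.31) and S100A12 (-2.17) completed the 10 lowest, and each of these 6 lost its call in at least 4 alternatives. S100A12 is a neutrophil gene and was no longer called when cells with monocyte markers were removed. Calls were lost without healthy dog 4 for S100A12 (-1.64) and SCOC (-2.96), and for SCOC also without dog OS5 (-2.96). VTCN1 was not called without healthy dog 4 or 5 or dog OS1 or OS5 (between -2.28 and -1.89), CKAP4 without any but healthy dog 4 and dog OS2 (between -2.29 and -2.04), and NKAIN2 without any but healthy dog 5 (between -3.40 and -2.97).

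**Figure D4:**
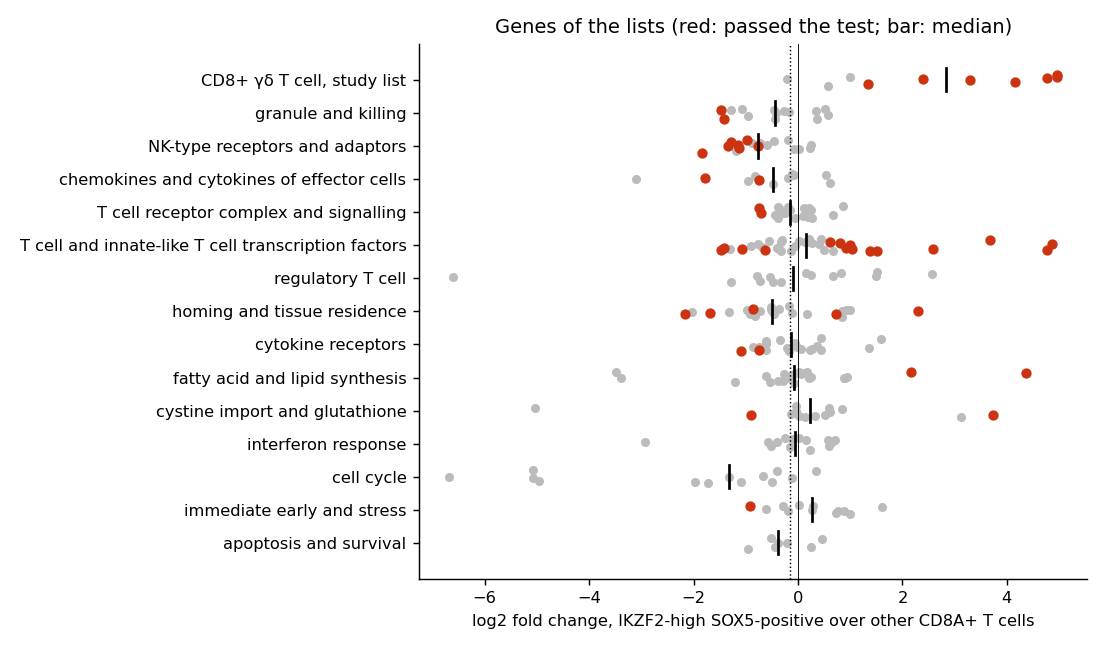
For IKZF2-high SOX5-positive T cells against other CD8A+ T cells, each row is a gene list and each point 1 tested gene at its log2 fold change, red where it was called and grey where it was not, with the dotted line at the median of all 11947 genes (-0.15). Genes of the CD8+ γδ list lie to the right with 7 of 10 called, NK-type receptors lie to the left with 7 of 17 called, and regulatory T cell, interferon and cell cycle genes show no call.

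A second comparison, with T cells that had at least 5 UMIs of IKZF2 and also CD4 (920 cells), asked how IKZF2-high SOX5-positive T cells differ from IKZF2-high cells of the CD4 lineage. In the same 7 dogs 536 of 10105 genes were called (5.3%), 237 higher (2.35%) and 299 lower (2.96%), and 286 and 239 with DESeq2's size factors. All comparisons share the same IKZF2-high SOX5-positive T cells, so their results are not independent. Among the named genes that are not given as a lower bound, PTHLH was highest (6.36 ± 0.46, edgeR adjusted p = 5.15e-12), with 163 UMIs against 3. It was followed by the membrane protein gene TMEM178B (6.27 ± 0.42, edgeR adjusted p = 1.01e-12). ELOVL5 lay between 649 and 2578 CPM against 160 to 305 CPM (2.41 ± 0.19, edgeR adjusted p = 2.97e-11).

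Here the direction of the cytotoxic genes was the opposite of that in the first comparison. GZMA (2.33 ± 0.25), GZMB (2.83 ± 0.26), GZMK (2.58 ± 0.31), KLRK1 (1.87 ± 0.26) and NCR3 (2.43 ± 0.26) were all higher than in IKZF2-high CD4+ T cells. These values pool both kinds of cell. Over all dogs, 42.8% of the IKZF2-high SOX5-positive T cells had only cytotoxic genes, against 9.89% of the IKZF2-high CD4+ T cells. The values therefore do not describe the cells with only list genes, and the part of the mixture was not tested. Of 15 regulatory T cell genes 8 were lower and none higher, with a median of -2.13 against -0.10 for all genes. The checkpoint receptor gene CTLA4 fell by 3.89 ± 0.33, the interleukin 2 receptor gene IL2RA by 4.38 ± 0.53 and the costimulatory receptor gene ICOS by 2.58 ± 0.20, and TNFRSF4, TNFRSF18, RGS1, ZNF831 and CD28 were also lower, TNFRSF18 not without healthy dog 1 (-1.92) and neither TNFRSF4 nor TNFRSF18 with DESeq2. FOXP3, the defining factor of regulatory T cells, was detected in 1 of the 194 cells and was not called (-4.42 ± 1.36, edgeR adjusted p = 0.0352). EOMES, a factor of cytotoxic T cells, was higher (3.77 ± 0.72), and MAF and RORA were lower (-2.67 ± 0.21 and -1.61 ± 0.19). CADM1, an adhesion molecule, had 1 UMI against 217 (-5.77 ± 0.59, edgeR adjusted p = 9.53e-09), and S100A2, a calcium-binding protein, was lower as well (-5.56 ± 0.63).

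KRT23, BNC2 and DAPK1 completed the 5 highest of this comparison and LHFPL6, BCAR3 and TPX2 the 5 lowest. KRT23 and BNC2 were at least 25.5-fold and 24.6-fold higher, and LHFPL6, BCAR3 and TPX2 at least 9.14-fold, 7.80-fold and 6.09-fold lower, each with 3 UMIs over the group as the floor. DAPK1, a death-associated kinase, was higher by 5.03 ± 0.77. BCAR3 and TPX2, a gene of the mitotic spindle, were not called without dog OS5 (edgeR adjusted p = 0.0134 and 0.0199).

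The third comparison was with 2954 cells that met the rule except that they had no SOX5 UMI, and it shows what accompanied the detection of SOX5. Of 11486 genes, 334 were called (2.91%), 151 higher (1.31%) and 183 lower (1.59%), with a median log2 fold change of -0.16 for all genes. With DESeq2's size factors 192 were higher and 97 lower, and the median was -0.04. Without the dog as a block 15 genes were called. ELOVL5 lay between 640 and 2542 CPM against 344 to 757 CPM and was higher in 7 of 7 dogs (1.55 ± 0.12, edgeR adjusted p = 4.83e-14).

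PTHLH (3.77 ± 0.33), NAV3 (5.25 ± 0.47), ADGRL3 (4.39 ± 0.58), KCNJ2 (a potassium channel, 3.79 ± 0.95) and WIPF3 (3.77 ± 0.60) had the largest folds. KCNJ2 was not called without dog OS2 (2.52) or with DESeq2. The study lists KCNJ2 among the markers of its monocytic myeloid-derived suppressor cells, and dog OS2 gave cells with 101 and 287 monocyte-marker UMIs. Of the 10 CD8+ γδ list genes 6 were higher (median 1.79), and SLC7A11 (2.98 ± 0.25), MYB (2.89 ± 0.27), LEF1 (0.88 ± 0.17), TCF7 (0.86 ± 0.16) and TOX (0.84 ± 0.11) were higher too, LEF1 not with DESeq2. Of 38 tested factors of T cells and innate-like T cells, 10 were higher, these 4 among them, and 5 lower (median 0.09). The lower ones were HOPX, ZBTB16, RORA, MAF and PRDM1, and DESeq2 also called these 5. GZMA (-1.02 ± 0.25), GZMB (-0.79 ± 0.20), KLRK1 (-0.84 ± 0.16) and NCR3 (-0.90 ± 0.18) were lower, and GZMK did not pass (-0.42, edgeR adjusted p = 0.201). DESeq2 called 0 of these 5 genes. GZMA was not called without healthy dog 1 or 5 (-0.88 and -0.97), nor GZMB without healthy dog 1 or 5 or dog OS6 (-0.69, -0.85 and -0.57). Of 16 regulatory T cell genes 5 were lower (CTLA4, IL2RA, ICOS, RGS1 and ZNF831, median -1.31), RGS1 and ZNF831 not with DESeq2. Among 23 cytokine receptors 4 were lower (IL2RB, IL12RB2, IL18R1 and IL23R, median -0.32), of which DESeq2 called only IL2RB, and IL18R1 lost its call without dog OS5 (-0.77) and IL23R without healthy dog 5 or dogs OS1 or OS6 (-2.36, -2.25 and -2.23).

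Among the lowest genes of this comparison, PGLYRP1 and CAMP encode antimicrobial proteins of neutrophils. PGLYRP1, PCSK5 and BCAR3 were at least 2.83-fold, 3.18-fold and 4.05-fold lower, and CAMP and S100A2 were lower as well (-4.69 ± 0.77 and -4.43 ± 0.81). CAMP was not called when cells with monocyte markers were removed. PCSK5, BCAR3 and CAMP lost their calls without dog OS5 (edgeR adjusted p = 0.0350, 0.0101 and 0.910, CAMP at -0.59 on the log2 scale), PCSK5 also without dog OS6 (0.0111) and BCAR3 without healthy dog 4 (0.0147). PGLYRP1 and CAMP had positive values with DESeq2 (1.57 and 0.43).

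The share of IKZF2-high SOX5-positive T cells among CD3E+ cells was compared between dogs with OS and healthy dogs. It was 0.364, 0.387, 0.132, 0.535, 0.372, 0.254 and 0.171% in healthy dogs 1 to 7, from 12, 7, 3, 26, 10, 7 and 3 cells. In dogs OS1 to OS10 it was 1.19, 0.297, 0.629, 0, 1.65, 0.733, 0.202, 0.298, 0.148 and 0.112%, from 33, 13, 5, 0, 35, 20, 6, 6, 5 and 3 cells. The groups overlapped, and dogs OS1, OS3, OS5 and OS6 had higher values than all healthy dogs. In dog OS4, 0 of 2908 CD3E+ cells met the rule, which allows a share of up to 0.103% by 3 cells and has an exact Clopper-Pearson upper bound of 0.127%. Exact Clopper-Pearson 95% intervals were 0.818 to 1.66% in dog OS1 and 1.15 to 2.29% in dog OS5, and 0.350 to 0.783% in healthy dog 4, the highest healthy dog. In dogs OS3 and OS6 they were 0.205 to 1.46% and 0.449 to 1.13%. Both overlapped with the interval of healthy dog 4, so these counts cannot place dogs OS3 and OS6 above it. Intervals and limits cover counting error only.

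Healthy dogs had a mean of 0.316% ± 0.140 (SD, n = 7) and dogs with OS one of 0.526% ± 0.533 (SD, n = 10), and the medians were 0.364 and 0.297%, so mean and median differed in opposite directions. No difference was detected (two-sided exact Wilcoxon rank-sum test, p = 0.887, and permutation test of the means, p = 0.371). The difference in means of 0.209 percentage points fell to 0.136 without dog OS1, to 0.0842 without dog OS5, and to -0.0140 without both (exact Wilcoxon p = 0.613).

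**Figure D5:**
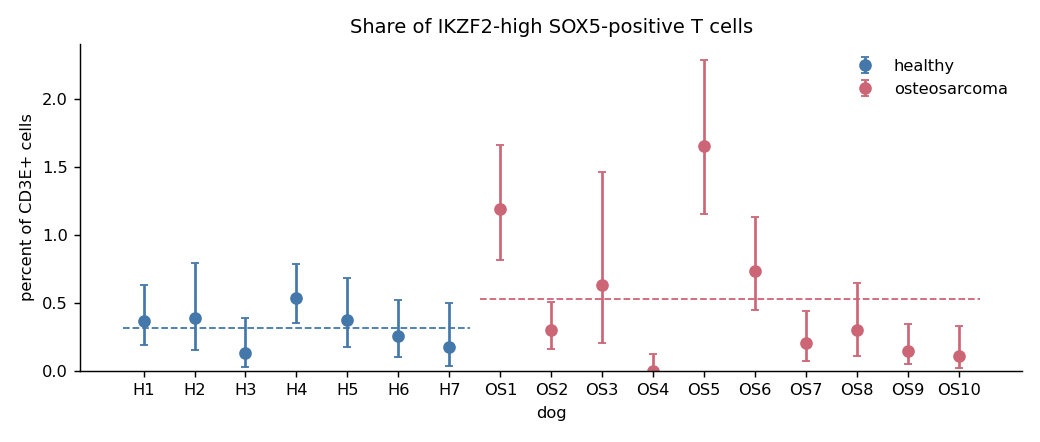
Each point is 1 dog, with the share of IKZF2-high SOX5-positive T cells among CD3E+ cells in percent and its exact 95% binomial interval, healthy dogs at the left and dogs with OS at the right. Healthy dogs lie between 0.132 and 0.535% and dogs with OS between 0 and 1.65%, with dogs OS1 and OS5 highest.

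The cells with only list genes were a smaller part. They made up between 0.0441 and 0.181% of CD3E+ cells in healthy dogs. In dogs with OS they were absent from 5 dogs (OS3, OS4, OS8, OS9 and OS10) and made up 0.108, 0.114, 1.32, 0.623 and 0.202% in dogs OS1, OS2, OS5, OS6 and OS7. Dogs OS5 and OS6 thus lay above all 7 healthy dogs. Dog OS7 (6 cells) had a slightly higher value than healthy dog 6 (5 cells, 0.181%), and these counts cannot place it above the healthy dogs. The 5 dogs without such cells could hold shares of up to 0.377, 0.103, 0.149, 0.0888 and 0.112% (3 cells each, in the order of their numbers), so they cannot be placed below the healthy dogs. Since this class was defined after the values had been seen, no test was made.

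Expression within IKZF2-high SOX5-positive T cells was compared between the 4 dogs with OS and the 3 healthy dogs that had at least 10 cells. No gene of 8068 was called by edgeR (0%), the unadjusted p of 248 genes was below 0.05, and ARHGAP45 was the 1 gene that DESeq2 called. In dogs OS1, OS2 and OS5 most of its UMIs came from cells that also held many monocyte-marker UMIs. These cells held 118 ARHGAP45 UMIs in dog OS1, 68 and 53 in dog OS2 and 105 in dog OS5. Their monocyte-marker UMIs were 249, 287, 101 and 378 in that order. DESeq2 was not run without these cells. Without dog OS1 edgeR called 1 gene and without dog OS6 it called 2. On the TMM scale of these 7 sums, ELOVL5 stood at 689, 1122, 2484 and 2717 CPM in dogs OS1, OS2, OS5 and OS6 and at 1152, 1142 and 1213 CPM in healthy dogs 1, 4 and 5 (0.59 ± 0.37, edgeR adjusted p = 1). Its levels overlapped between the groups. Over every dog with such cells, ELOVL5 without TMM lay between 0 CPM in dog OS10, all of whose 3 cells had only cytotoxic genes, and 2759 CPM in dog OS6. It stood at 2305 CPM in healthy dog 7, where 57 of its UMIs came from 1 of the 3 cells and another had 0. The interferon response genes had a median of 0.78 over 10 tested genes against 0.06 for all genes, and none was called.

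Whether the difference between dogs with OS and healthy dogs was another in IKZF2-high SOX5-positive T cells than in other CD8A+ T cells was tested as an interaction in the same 7 dogs. Of 11947 genes 3 were called (0.0251%), the unadjusted p of 433 genes was below 0.05, and with DESeq2 0 genes were called. They were LYZ (lysozyme, a monocyte marker, 4.57 ± 0.45, edgeR adjusted p = 1.07e-19), CXCL8 (the chemokine interleukin 8, 4.57 ± 0.77, edgeR adjusted p = 1.02e-05) and ARHGAP45 (a GTPase-activating protein, 2.83 ± 0.45, edgeR adjusted p = 1.83e-06). LYZ stood at 0, 37.8 and 0 CPM in the IKZF2-high SOX5-positive T cells of healthy dogs 1, 4 and 5 and at 831, 2042, 972 and 59.0 CPM in dogs OS1, OS2, OS5 and OS6. Most of its UMIs came from 1 cell in dog OS1 (209 UMIs), 2 in dog OS2 (234 and 48 UMIs) and 1 in dog OS5 (292 UMIs), and no other cell of these dogs held more than 4. In the same order these cells held 118, 68, 53 and 105 UMIs of ARHGAP45, and 46, 110, 126 and 0 UMIs of CXCL8. In other CD8A+ T cells LYZ stood at 178, 415 and 204 CPM in the healthy dogs and at 326, 61.1, 1469 and 1769 CPM in the dogs with OS. Once cells with at least 3 monocyte-marker UMIs were removed from both populations, none of these 3 genes was called (1.5, 1.57 and 0.58). LYZ was itself among the markers used for the removal, so its lower value follows from it. LGALS3 (galectin 3), named here after its value was seen, was then the 1 called gene (-4.81). CXCL8 and ARHGAP45 also lost their calls without dog OS2 (3.22 and 1.73), as CXCL8 did without healthy dog 1 (6.54). Without dog OS1 14 genes were called (4 higher and 10 lower), and without healthy dog 1 there were 5 (3 higher and 2 lower).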

How the data were processed

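Blood leukocytes of 7 healthy dogs and 10 dogs with OS were isolated by density centrifugation and captured on a 10x Genomics Chromium instrument with 3′ chemistry. The values used were raw UMI counts per gene and barcode, which the authors deposited as a separate matrix for each dog, and the submitters' processing notes name Cell Ranger 7.0.0, Seurat and CanFam3.1. Whether reads in introns were counted is not given for the deposited counts, and 20257 genes were counted, 4432 of them by an identifier only.

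Barcodes with 200 to 4500 genes, 500 to 20000 UMIs and under 10% mitochondrial UMIs were kept. Doublets were kept in the main results. In an alternative, the barcodes with the highest Scrublet scores (scanpy 1.11.5) were removed up to a rate of 0.8% for every 1000 barcodes. The IKZF2-high SOX5-positive T cells, the gene lists and the tests were chosen with earlier results of these data known.

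Counts were summed per dog and population where both sides had 10 or more cells. Genes that reached 10 counts in total were tested with edgeR 4.0.16 (quasi-likelihood test, TMM, dog as a block between populations, Benjamini-Hochberg adjustment). CPM per dog and their fold changes come from these sums, and CPM of classes and of marker lists are UMIs scaled to a total of 1000000 without TMM. Shares were tested with the exact Wilcoxon rank-sum test and CD8A with an exact sign-flip test. The genes named are those of the rule, up to 4 called genes of each list with the largest fold, those the study's text names for its class, the 10 highest and 10 lowest called genes with a symbol and a mean of at least 10 CPM in the first comparison, and 5 and 5 in each other one. Further genes of the lists, among them those of the class descriptions, were named after their values were seen. A few genes of the lists are counted but not reported here by name.

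Alternatives were DESeq2 1.42.0, its size factors, other filters on genes, 5 or 25 cells per dog, Scrublet, IKZF2 and SOX5 minimums, CD8A required, other limits on cells, cells thinned to 3000 UMIs or matched for UMIs (5 per cell), no block, and each dog left out. Added after seeing the data were at least 2 SOX5 UMIs for expression, removal of cells with at least 3 monocyte-marker UMIs, the share without dogs OS1 and OS5, and CD8A without the block. The same replicate numbers in both groups belong to different dogs and pair nothing. Procedures were tested on simulated data. Sequences were not used here. Other tools were Python 3.11.15, numpy 2.4.6, scipy 1.17.1, pandas 2.3.3, R 4.3.3 and limma 3.58.1.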

Additional observations from a re-analysis of the deposited data

Results flagged for a closer look

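In 59 groups of 4 to 10 dogs the gap of the extreme dog to the next was set against the range by Dixon's criterion, and it was exceeded in 8 groups. Chance flags about 1 in 20 groups. In healthy dogs, ELOVL5 in IKZF2-high SOX5-positive T cells was highest in healthy dog 7 (2305 CPM, from 3 cells). In dogs with OS, the share of cells with only list genes was highest in dog OS5 (1.32% of CD3E+ cells).

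The other 6 were single genes in the IKZF2-high SOX5-positive T cells of the 4 dogs with OS that had at least 10 cells. Dog OS1 was highest for GZMB (1858 CPM), GZMA (1095 CPM) and KLRG1 (42.1 CPM), and 25 of its 33 cells had only cytotoxic genes. Dog OS2 was highest for ADGRL3 (473 CPM) and S100A12 (57.3 CPM). Dog OS6 was highest for VTCN1 (14.8 CPM).

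For 3 genes the difference between dogs with OS and healthy dogs was larger in IKZF2-high SOX5-positive T cells than in other CD8A+ T cells by the interaction test of edgeR. The log2 values were 4.57 for LYZ (adjusted p = 1.07e-19), 4.57 for CXCL8 (adjusted p = 1.02e-05) and 2.83 for ARHGAP45 (adjusted p = 1.83e-06). LYZ is a monocyte marker, and 17 of the 194 cells held at least 3 monocyte-marker UMIs. Without cells of that kind the values were 1.5, 1.57 and 0.58, each with an adjusted p of 1. LYZ was one of the markers used for that removal, so its lower value follows from it.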

How the results depend on the processing

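Across alternatives, 101 values of the comparisons kept their direction and stayed on their side of the threshold or within 1.5 times their count, 28 counts moved further, 2 values lost significance and 1 changed sign. Of 75 results for single named genes, 22 kept their direction and call in every alternative run. Against other CD8A+ T cells (492 genes), edgeR called 308 with filterByExpr, 306 at 25 cells per dog, 305 against cells matched for UMIs and 118 with only cells that had CD8A, and between 332 and 577 without single dogs. Some settings also left fewer than 7 dogs, 3 at 25 cells or with CD8A, 4 with at least 8 IKZF2 or 2 SOX5 UMIs and 5 without Scrublet marks. Against IKZF2-high CD4+ T cells (536 genes), DESeq2 called 322, and edgeR 128 at 25 cells per dog, 260 with at least 8 IKZF2 UMIs, and between 398 and 534 without single dogs. Against IKZF2-high SOX5-negative cells (334 genes), DESeq2 called 179, and edgeR 164 with filterByExpr, 138 at 25 cells, 196 without Scrublet marks, and between 250 and 410 without single dogs. PGLYRP1 and CAMP, lower in that comparison, were at 1.57 and 0.43 on the log2 scale with DESeq2. Between dogs with OS and healthy dogs (0 genes), DESeq2 called 1, edgeR without a filter on genes 14, and edgeR without single dogs between 0 and 2. For the interaction (3 genes), 0 were called with DESeq2, with filterByExpr, at 5 cells per dog and without Scrublet marks, 5 at 25 cells, 11 with at least 8 IKZF2 UMIs, 5 with at least 2 SOX5 UMIs, 1 without monocyte-marker cells, and between 3 and 14 without single dogs.

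Without the dog as a block, edgeR called 229, 312 and 15 genes in the 3 comparisons between populations, and CD8A stayed higher (1.16, exact permutation p = 0.00874). With the replicate number as a block, the difference in share was 0.355 percentage points (exact sign-flip p = 0.234), but equal numbers mark different dogs. The difference in share lay between 0.0842 and 0.268 points without single dogs and was -0.0140 without dogs OS1 and OS5. The log2 difference of CD8A lay between 0.957 and 1.25 without single dogs. It was 1.07 without Scrublet marks (5 dogs) and 0.785 at 25 cells per dog (3 dogs), where the smallest possible exact p, 0.0625 and 0.25, cannot pass 0.05.

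The number of cells limits these results, as does the mixture of classes. Only 7 of 17 dogs had at least 10 cells, and 84 of 194 cells rested on 1 SOX5 molecule.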
